A study of Mus musculus with 24 samples.

Results

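The comparison described here is that of colon fibroblasts from mice labelled IhhKO-ApcKO (9 arrays) with fibroblasts from mice labelled IhhWT-ApcWT (7 arrays, called WT below), 16 of the 24 arrays of the series, across 30827 genes. The remaining 8 arrays came from mice labelled ApcKO. They enter the fit through its shared estimate of the spread, and their values are set beside this comparison. Mice of all groups carried Villincre-ERT2, an inducible Cre recombinase driven by the Villin promoter, which is active in intestinal epithelial cells and not in fibroblasts, together with ZsGreen, a fluorescent protein. The genes Apc and Ihh were therefore deleted in the epithelium, while the cells measured were its neighbours. Fibroblasts were sorted as negative for Epcam (epithelium), CD45 (leukocytes) and CD31 (endothelium) and positive for gp38, which is podoplanin. For each array, 2 ng of RNA was amplified and hybridized to an Affymetrix mouse transcriptome array. The age of the mice and the time since induction are not stated in the labels, nor do they say whether arrays stand for separate mice; p-values then measure only how these samples spread, which may be technical.

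Indian hedgehog (Ihh) is a ligand secreted by the differentiated epithelium of the colon and received by the mesenchyme below it. There it binds the receptor Ptch1, which releases Smo and lets the transcription factors Gli1, Gli2 and Gli3 act; Gli1, Ptch1 and Hhip are themselves transcribed in response, so that their RNA serves as a readout of the signal. Apc is the scaffold of the complex that degrades beta-catenin, and its loss in the epithelium switches on Wnt target genes there and starts adenomas.

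All values are the authors' log2 values (RMA), a difference of 1 being a 2-fold change, and differences are IhhKO-ApcKO minus WT with the standard error (SE) of the fit. A gene is said to have risen or fallen where limma, fitted to all 24 arrays, gave a p under 0.05 after Benjamini-Hochberg adjustment across the 30827 genes. Array medians ran from 4.96 to 5.14, and the number of arrays limits the precision. Of the 4 markers of the gate, Pdpn, the gene of podoplanin, lay between 10.73 and 11.08 on the IhhKO-ApcKO arrays and between 10.81 and 10.99 on the WT arrays, and Ptprc, the gene of CD45, between 2.86 and 3.21 on all 16. Epcam and Pecam1, the gene of CD31, were not as low although the cells were sorted as negative for them: Epcam ran from 5.18 to 7.43 on WT and from 4.73 to 7.96 on IhhKO-ApcKO arrays, and Pecam1 from 5.15 to 6.46 on all 16. Epithelial RNA was thus present to a varying degree, the mean of 17 epithelial markers running from 5.85 to 8.02 on WT arrays and from 5.54 to 8.27 on IhhKO-ApcKO arrays. Sex was not stated and was not balanced: Xist, expressed from the inactive X chromosome of females, was above 10 on 6 of the 9 IhhKO-ApcKO arrays and on 2 of the 7 WT arrays, and WT arrays A1 (7.15) and A8 (9.50) held Xist together with Y-linked RNA (mean of 3 Y-linked genes 6.38 and 6.28). Its part in the results was not tested beyond a fit with the Y-linked mean as a covariate, given below. Arrays carry a code of a letter and a digit; WT arrays all carry A, the IhhKO-ApcKO arrays carry C except B9, and no letter holds both groups, so letter and genotype cannot be told apart. One IhhKO-ApcKO array, B9, lay apart from the other 8 in the Hedgehog target genes, as described next. The counts of called genes and the differences of part of the genes are also given without it.

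Loss of Apc and Ihh in the epithelium went with a small set of changed genes in the fibroblasts, most of them lower. Of 30827 genes, 25 passed the test (0.0811%), 22 lower (0.0714%) and 3 higher (0.00973%). The largest falls were those of Lepr, the leptin receptor (2.54-fold), Ptch1 (2.41-fold), Tmigd1, a membrane protein known from epithelia (2.28-fold), Gli1 (2.25-fold) and Hhip (2.21-fold), and these 5 were the called genes with more than a 2-fold change. Nrg1, the growth factor neuregulin 1, rose 1.86-fold. Over all genes the median difference was -0.01, and 44.9% of the differences were positive. At an unadjusted p under 0.05, 939 genes were higher (3.05%) and 1411 lower (4.58%), together 2350 where 1541 are expected if no gene differs.

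**Figure D1:**
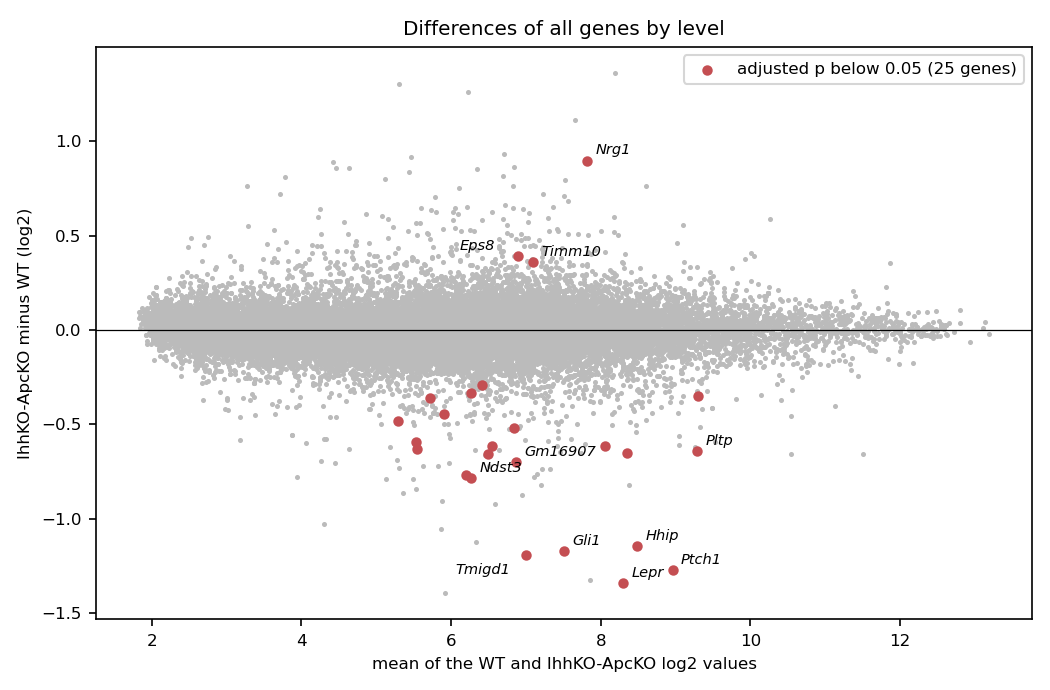
Difference between IhhKO-ApcKO and WT (vertical axis, log2) against the mean of both groups' values (horizontal axis, log2) for 30827 genes, with the 25 called genes in red. Most called genes lie below 0, with Lepr, Ptch1, Tmigd1, Gli1 and Hhip past -1 and Nrg1 as the highest.

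All 9 IhhKO-ApcKO arrays lay below every WT array for 15 genes (0.0487%) and above every WT array for 7 (0.0227%). Among the called genes this held for 7 of the 22 lower ones (Pltp, C130026L21Rik, Gm16907, Ndst3, Gria4, Selenbp1 and D630003M21Rik) and for Timm10 and Eps8 of the 3 higher ones. The count of called genes depended on single arrays. It fell to 12 without WT A5 or WT A6, to 13 without C4, to 15 without A4, A8 or C6, and to 16 without A1 or C7, and it rose to 67 without B9. Of the 25 genes, 9 (Gli1, Pltp, Ptch1, C130026L21Rik, Lrmda, Gm16907, Ndst3, Plppr5 and Cmbl) passed in each of the 16 fits that left out 1 array. With each array centred on its median, which shifted differences by 0.03, 16 genes passed, 12 lower and 4 higher, 14 of them among the 25; Hhip, Nrg1, Gria4, Qpct, Susd2, Cntn4, D630003M21Rik, Lrrtm3, Ppil6, Ptprd and Selenbp1 then lost their call. With the Y-linked mean as a covariate 14 passed, 13 of them among the 25; Hhip, Nrg1, Eps8, Timm10, Tmigd1, Gria4, Cck, D630003M21Rik, Lrrtm3, Ppil6, Ptprd and Selenbp1 then lost their call. With the mean of 18 leukocyte markers as a covariate 22 passed, 17 of them among the 25, and Hhip, Tmigd1, Eps8, Gria4, Cntn4, Lrrtm3, Ptprd and Selenbp1 lost their call. With the epithelial mean 20 passed, 19 of them among the 25, and Cck, Cntn4, D630003M21Rik, Lrrtm3, Ppil6 and Ptprd lost theirs. Fitted on the 16 arrays alone, without the ApcKO arrays' share of the spread, 7 passed, namely Gli1, Pltp, Ptch1, C130026L21Rik, Lrmda, Gm16907 and Ndst3.

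The Hedgehog target genes carried the clearest difference. Of 9 measured targets on the list, 3 fell and none rose, against 0.0714% and 0.00973% of all genes, and the median difference of the 9 was -0.15 against -0.01 over all genes. This list, like the others, was chosen with earlier results of these data known, so its share of calls is a description. Gli1, the transcription factor that amplifies the signal, had WT values from 7.98 to 8.20 (median 8.08) and IhhKO-ApcKO values from 6.64 to 7.99 (median 6.79). On 8 of the 9 IhhKO-ApcKO arrays Gli1 lay at or below 7.05, under every WT array, and the highest value was that of B9. The difference was -1.17 ± 0.13 (SE; adjusted p = 7.53e-05, limma), the smallest p of all genes, and -1.31 without B9 (adjusted p = 5.29e-12, limma).

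Ptch1, the receptor and feedback inhibitor, had WT values from 9.32 to 9.84 (median 9.63) and IhhKO-ApcKO values from 7.67 to 9.53 (median 8.34). Again B9 alone overlapped the WT range, the other 8 arrays ending at 8.52. The difference was -1.27 ± 0.18 (SE; adjusted p = 0.00315, limma), and -1.42 without B9. Hhip, a membrane protein that binds and sequesters Hedgehog ligands, had WT values from 8.68 to 9.76 (median 9.04) and IhhKO-ApcKO values from 7.33 to 8.96 (median 8.04). Its difference was -1.15 ± 0.21 (SE; adjusted p = 0.0299, limma). The other 8 arrays ended at 8.14, below every WT array, and without B9 the difference was -1.28 (adjusted p = 0.00266, limma). The call of Hhip was lost in 9 of the 16 fits without 1 array (without A1, A4, A5, A6, C2, C4, C6, C7 or C9, adjusted p up to 0.0781, limma), with differences between -1.28 and -1.03, and also with median centring and with the Y-linked or the leukocyte mean as a covariate.

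**Figure D2:**
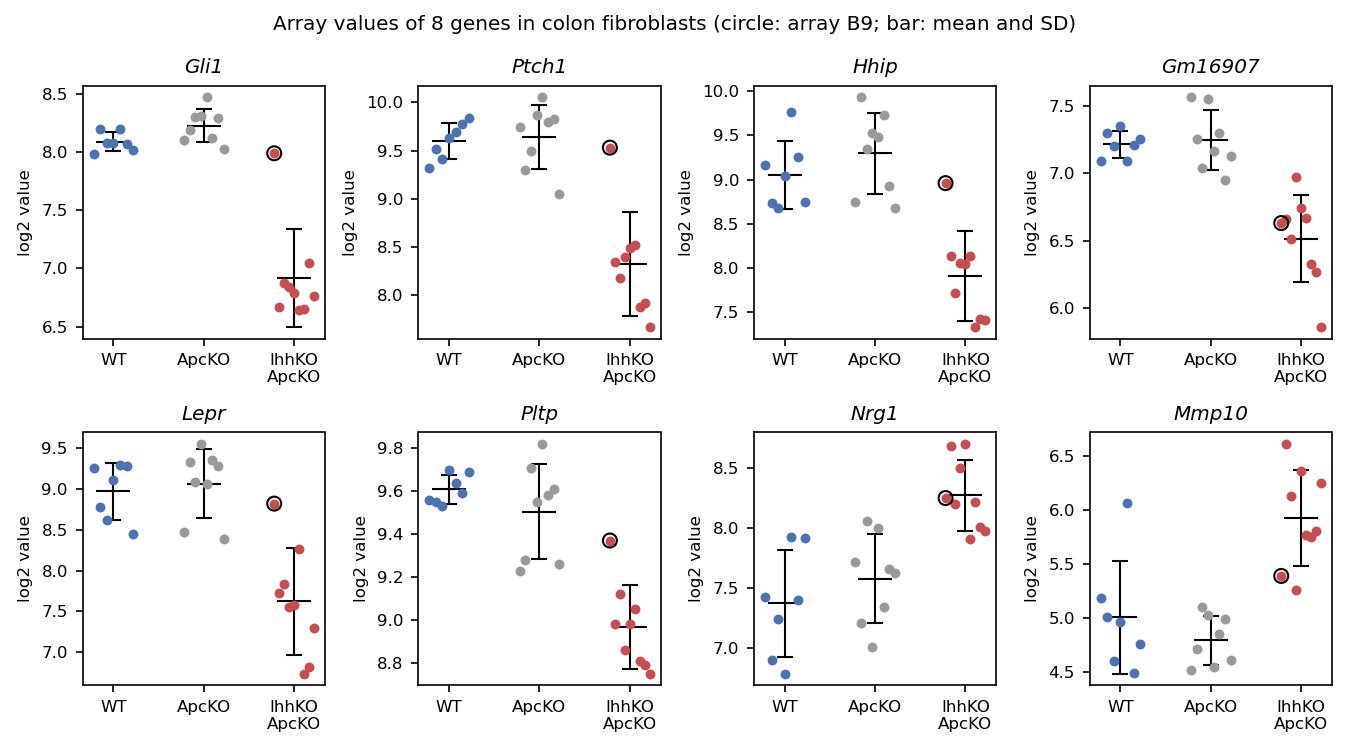
Log2 values (vertical axes) of 8 genes on the WT (n = 7), ApcKO (n = 8) and IhhKO-ApcKO (n = 9) arrays, with mean and SD as bars and array B9 circled. For Gli1, Ptch1 and Hhip, 8 IhhKO-ApcKO arrays lie below every WT array and B9 lies with the WT arrays; for Nrg1, B9 lies among the other IhhKO-ApcKO arrays.

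B9 was not shifted alike in all called genes. On a scale on which the WT mean is 0% and the mean of the other 8 IhhKO-ApcKO arrays is 100%, B9 stood at 4.8% for Ptch1, 7.1% for Hhip, 7.3% for Gli1 and 10.1% for Lepr. It stood at 81.8% for Gm16907, 92.2% for Lrmda, 96.9% for Nrg1, 164.6% for C130026L21Rik and 171.5% for Cntn4. Its median over the 25 genes was 53.3%, against 61.2% to 117.8% for the other 8 arrays, of which C5 was the lowest. In the library labelled IhhKO-ApcKO B9 the Hedgehog readout was thus at the WT level, while part of the other called genes was not. These positions describe genes that were called with B9 in the fit.

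**Figure D3:**
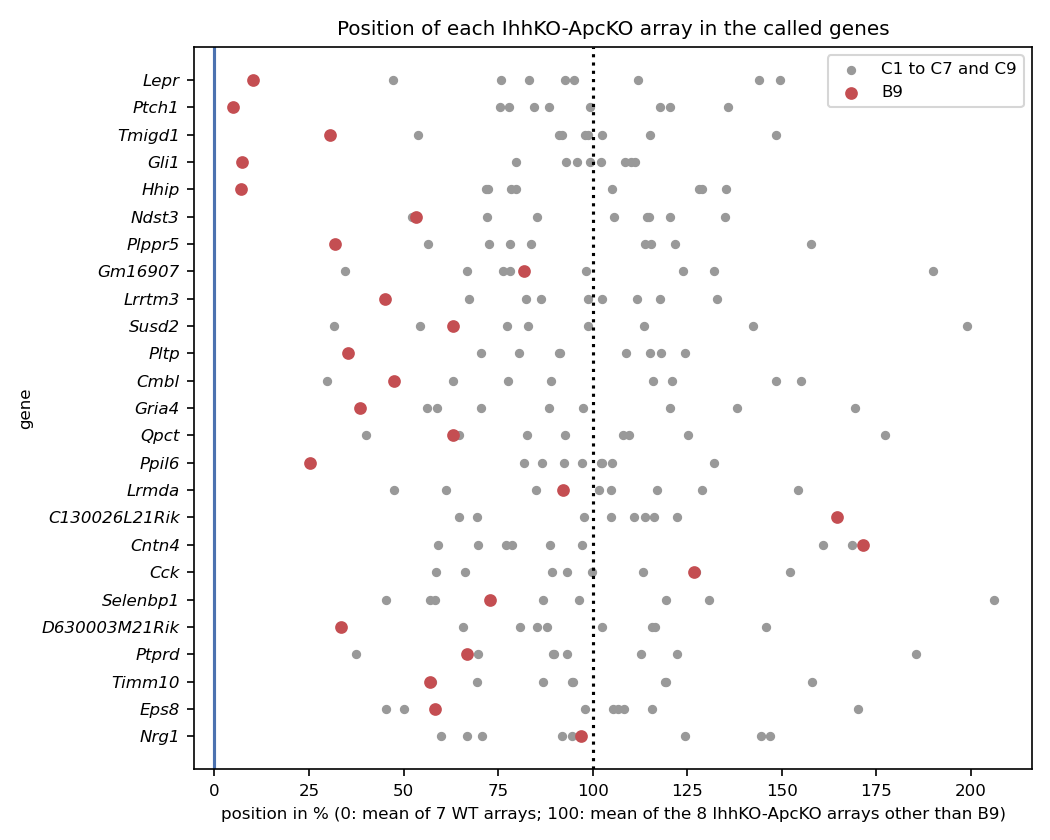
Position of each IhhKO-ApcKO array in each of the 25 called genes (rows), in percent of the way from the mean of 7 WT arrays (0) to the mean of the 8 IhhKO-ApcKO arrays other than B9 (100). B9, in red, lies at or under 10.1% for Ptch1, Hhip, Gli1 and Lepr and at or past 164.6% for C130026L21Rik and Cntn4.

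Other targets on the list did not pass. Foxl1, a forkhead factor of the fibroblasts under the epithelium, was at 6.39 to 6.91 on WT and 6.15 to 6.58 on IhhKO-ApcKO arrays, a difference of -0.32 ± 0.07 (SE; adjusted p = 0.108, limma), with 7 of 9 arrays below every WT array. Foxf2 differed by -0.15 (adjusted p = 0.788, limma) and Foxf1, the other forkhead factor of gut mesenchyme, by -0.04, which turned to 0.01 without A5. Bmp4, a secreted BMP ligand, differed by 0.02 ± 0.12 (SE), between -0.08 (without A2) and values above 0. For the Foxf genes and Bmp4 no difference larger than the spread between arrays was detected.

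The parts of the pathway upstream of Gli1 did not pass the test in any of the 15 genes measured (0 of 15 by limma, against 0.0811% of all genes; 4 lower at an unadjusted p under 0.05; median -0.06). Gli2, the main activator, differed by -0.17 ± 0.06 (SE; adjusted p = 0.507, limma), with 6 of 9 arrays below every WT array, and Cdon, a co-receptor, by -0.36 ± 0.12 (SE; adjusted p = 0.383, limma). Gpr161, a receptor that restrains the pathway in the cilium, differed by -0.18, Boc, another co-receptor, by -0.12, and Smo by -0.03, which turned to 0.00 with median centring. The deleted genes themselves check little in cells that were not the target of the deletion: Ihh was at 6.23 to 6.63 on WT and 6.18 to 6.61 on IhhKO-ApcKO arrays, and Apc at 6.69 to 7.04 and 6.67 to 6.86. No difference beyond the spread was detected (Ihh -0.05 ± 0.07, Apc -0.10 ± 0.06; SE).

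Set beside the ApcKO arrays, which share the WT arrays with this comparison, ApcKO minus WT was 0.14 for Gli1, 0.04 for Ptch1 and 0.24 for Hhip, and IhhKO-ApcKO minus ApcKO was -1.31, -1.32 and -1.39. In Foxl1 these differences were 0.04 and -0.37. The ApcKO arrays thus stood near or above WT in Gli1, Ptch1, Hhip and Foxl1.

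Promoter sequence was read from RefSeq (GRCm38.p6) for 19 of the 25 called genes, as windows of 250 bases before to 50 bases after the annotated start. The other 6 called genes, Gli1 among them, had no window and were not searched. Both Hedgehog feedback inhibitors are shown because they fell together, and Pltp because its p was the next smallest after that of Gli1. Lower case marks the bases before the start and capitals the 50 bases from it. The windows lie on the minus strand at chr13:63565686-63565985 (Ptch1), chr8:80057959-80058258 (Hhip) and chr2:164857659-164857958 (Pltp).
Ptch1: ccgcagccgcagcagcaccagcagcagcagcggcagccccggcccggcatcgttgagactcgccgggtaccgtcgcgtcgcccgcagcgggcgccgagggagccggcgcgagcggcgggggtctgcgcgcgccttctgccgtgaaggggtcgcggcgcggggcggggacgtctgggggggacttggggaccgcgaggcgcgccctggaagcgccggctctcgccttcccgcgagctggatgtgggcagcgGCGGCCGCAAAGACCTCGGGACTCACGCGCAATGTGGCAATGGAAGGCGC
Hhip: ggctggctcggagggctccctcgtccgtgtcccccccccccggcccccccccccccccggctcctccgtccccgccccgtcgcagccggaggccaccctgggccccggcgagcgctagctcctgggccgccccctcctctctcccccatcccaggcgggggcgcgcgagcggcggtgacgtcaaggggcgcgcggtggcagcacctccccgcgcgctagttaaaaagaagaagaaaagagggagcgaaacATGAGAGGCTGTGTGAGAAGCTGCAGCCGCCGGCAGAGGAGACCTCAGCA
Pltp: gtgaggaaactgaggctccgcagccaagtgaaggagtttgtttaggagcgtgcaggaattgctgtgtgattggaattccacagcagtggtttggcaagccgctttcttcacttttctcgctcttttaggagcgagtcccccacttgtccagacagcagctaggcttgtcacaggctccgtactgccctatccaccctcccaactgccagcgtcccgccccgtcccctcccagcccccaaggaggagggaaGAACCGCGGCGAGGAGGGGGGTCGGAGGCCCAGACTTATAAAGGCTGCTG
The GC content was 76.3% for Ptch1, 73.7% for Hhip and 59% for Pltp, against a median of 56% over 22208 windows. The consensus of Gli factors, GACCACCCA on either strand, was in 0 of the 23 windows of called genes and in 0.198% of all windows. The AP-1 motif TGANTCA was in windows of 3 called genes, Cntn4, Gm16907 and Tmigd1, and in 7.38% of all windows. GAAANNGAA, part of the interferon element, was in windows of 3, Lepr, Lrrtm3 and Tmigd1, and in 8.13% of all windows. Searches covered both strands, and among the called genes no match of one motif overlapped that of another. A match is a description of the letters in these windows and nothing else, and the same holds for its absence.

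Ptch1 lay beside other lower genes. In the RefSeq order of the tested genes on chromosome 13, Gm16907, Mir3074-1, Fancc and Ptch1 follow each other. Genes that were not tested are left out of this order. Gm16907, a gene without a protein-coding entry, had WT values from 7.09 to 7.35 (median 7.21) and IhhKO-ApcKO values from 5.86 to 6.97 (median 6.63), and fell by 0.70 ± 0.12 (SE; adjusted p = 0.0117, limma). No IhhKO-ApcKO array reached the WT range, B9 included (6.63). Fancc, a member of the Fanconi DNA repair complex, had WT values from 6.90 to 7.23 and IhhKO-ApcKO values up to 7.20 (median 6.52), with B9 the highest and the other 8 at or below 6.64. It differed by -0.53 ± 0.11 (SE; adjusted p = 0.0556, limma), just outside the threshold, and by -0.61 without B9 (adjusted p = 0.000802, limma). The call just inside the threshold was that of Ppil6, of the peptidylprolyl isomerases, which fell by 0.60 (adjusted p = 0.0483, limma) and lost its call in 13 of the 16 fits without 1 array. Mir3074-1 differed by -0.65 ± 0.19 (SE; adjusted p = 0.255, limma), and the next tested genes on either side, Aopep (-0.11) and 1700024I08Rik (0.09), did not pass. Whether the probe sets of these neighbours read 1 transcript was not tested.

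The list of retinoid and lipid handling, on which the leptin receptor was placed, held 2 of the 22 lower genes, Pltp and Lepr, out of 19 measured (background 0.0714%). It was chosen with earlier results of these data known, so this share is a description and no test of the group. None of the 19 rose, and the median difference was -0.11. Pltp, the phospholipid transfer protein that moves lipids between lipoproteins, had WT values from 9.53 to 9.70 (median 9.59) and IhhKO-ApcKO values from 8.75 to 9.37 (median 8.98). The groups did not overlap, and the difference was -0.64 ± 0.09 (SE; adjusted p = 0.00147, limma). Lepr, which marks part of the stromal and perivascular cells of several tissues, had WT values from 8.45 to 9.29 (median 9.11) and IhhKO-ApcKO values from 6.74 to 8.82 (median 7.58). Only B9 overlapped the WT arrays. The difference was -1.34 ± 0.23 (SE; adjusted p = 0.0171, limma) and -1.49 without B9, and the call was lost without A5 or A6 (adjusted p up to 0.0537, limma). On ApcKO arrays Lepr stood 0.10 above WT.

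Other members of this list are named after their values were seen. Rbp4, the carrier of retinol, was at 9.22 to 9.90 on WT and 8.51 to 9.80 on IhhKO-ApcKO arrays, with B9 at 9.80 and the other 8 at or below 9.22. It differed by -0.52 ± 0.13 (SE; adjusted p = 0.161, limma) and by -0.61 without B9 (adjusted p = 0.0118, limma). Cd36, a fatty acid receptor (-0.73), and Lpl, lipoprotein lipase (-0.33), did not pass with B9 (adjusted p = 0.254 and 0.240, limma) or without it (adjusted p = 0.0893 and 0.148, limma).

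Heparan sulfate is a glycosaminoglycan that binds many secreted ligands. The heparan sulfate list covers enzymes that make and edit it and core proteins that carry it. Of its 20 measured genes, 1 fell and none rose, against 0.0714% and 0.00973% of all genes. At an unadjusted p under 0.05, 3 were higher and 1 lower. The median difference was -0.03. The gene that fell was Ndst3, an enzyme that deacetylates and sulfates the chain. It had WT values from 6.35 to 7.05 (median 6.65) and IhhKO-ApcKO values from 5.54 to 6.23 (median 5.78). All 9 arrays lay below every WT array, and the difference was -0.79 ± 0.13 (SE; adjusted p = 0.0125, limma). The list was chosen with earlier results of these data known. The single call among 20 genes is that gene's result and says little of the group.

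The remaining lower genes belong to no list with a second call. Plppr5, a membrane protein related to lipid phosphatases, had WT values from 6.29 to 6.93 and IhhKO-ApcKO values from 5.28 to 6.32, a difference of -0.77 ± 0.13 (SE; adjusted p = 0.0125, limma). C130026L21Rik had WT values from 5.39 to 5.73 and IhhKO-ApcKO values from 4.79 to 5.24 and fell by 0.48 (adjusted p = 0.00343, limma). It was dim: its means (WT 5.53, IhhKO-ApcKO 5.05) lay under the 95th percentile of the antigenomic background controls (5.574). The groups did not overlap in C130026L21Rik, where B9 was the lowest of all, while in Plppr5 B9 was the array that overlapped. ApcKO minus WT was -0.28 for C130026L21Rik and -0.33 for Plppr5.

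Lrmda, named for melanocyte differentiation, had WT values from 6.80 to 7.38 and IhhKO-ApcKO values from 6.30 to 6.86, a difference of -0.52 ± 0.08 (SE; adjusted p = 0.00343, limma). Cmbl, a hydrolase, had WT values from 5.59 to 6.16 and IhhKO-ApcKO values from 4.83 to 5.67 and fell by 0.63. In both genes 8 of the 9 arrays lay below every WT array, and B9 was among these 8. Qpct, glutaminyl cyclase, fell by 0.61, from a WT median of 8.27 to 7.78. Susd2, a membrane protein with a sushi domain, fell by 0.65, from a WT median of 8.69 to 8.12. Gria4, a subunit of AMPA glutamate receptors, fell by 0.61, from a WT median of 6.76 to 6.27, and its groups did not overlap. The call was lost without A4, A5 or A6 in Qpct, without A1, A3 or A5 in Susd2, and without A4, A5, A6, A8, C3, C4, C6 or C7 in Gria4 (adjusted p up to 0.0612, 0.0623 and 0.103, limma).

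The ApcKO mean lay under the WT mean in 17 of the 22 lower genes. ApcKO minus WT was -0.28 in C130026L21Rik and -0.26 in Cntn4 (adjusted p = 0.970 for each, limma). The 22 genes were selected as lower than the same WT arrays, which favours such a count. The share over all genes was not taken, so the count is no result about ApcKO. Among the lower genes Tmigd1 had the largest such difference. Its WT values ran from 6.71 to 8.27 (median 7.86), its ApcKO values from 6.07 to 7.03 (median 6.69) and its IhhKO-ApcKO values from 5.68 to 7.21 (median 6.34). It fell by 1.19 ± 0.22 (SE; adjusted p = 0.0217, limma), while ApcKO minus WT was -0.96 (adjusted p = 0.970, limma) and IhhKO-ApcKO minus ApcKO was -0.23. Tmigd1 is known as a gene of epithelial cells. Of 17 epithelial markers 12 were higher and 5 lower in IhhKO-ApcKO, and 0 passed by limma (0 also at an unadjusted p under 0.05). Cdh1 (0.65) and Epcam (0.53), of epithelial cells at large, had adjusted p of 0.807 and 0.837 (limma). Of the genes of differentiated colon or intestinal epithelium, Krt20 (-0.57) stood on the same side as Tmigd1. So did Fabp2 (-0.79) and Car1 (-0.56), named after their values were seen (adjusted p of the 3 genes 0.732, 0.821 and 0.919, limma). Others of this kind, also named after their values were seen, were higher: Muc2 (0.50), Vil1 (0.33), Lgals4 (0.29) and Tff3 (0.22). Slc26a3 was at -0.01. The part of RNA from differentiated epithelium in the fall of Tmigd1 was not tested. The adjusted p of Tmigd1 was 0.0276 with the epithelial mean as a covariate, 0.0558 with the leukocyte mean and 0.0714 with the Y-linked mean (limma), so that its call was lost with the last 2, and it was also lost without A1, A3, A6, A8 or C4 (adjusted p up to 0.0731, limma).

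A further 6 genes fell that the rule for named genes did not select; they are named after their values were seen. Selenbp1, a selenium-binding protein, fell by 0.35 (adjusted p = 0.0422, limma), and its near-identical copy Selenbp2 had the same difference of -0.35 (adjusted p = 0.0613, limma), so the signal cannot be assigned to either copy with certainty. Ptprd, a receptor tyrosine phosphatase, fell by 0.29, Cntn4, a contactin, by 0.45, and Lrrtm3, a leucine-rich membrane protein of synapses, by 0.65. Cck, the gut hormone cholecystokinin, fell by 0.36, and D630003M21Rik by 0.34. Each of these 6 had an adjusted p between 0.0422 and 0.0469 (limma), and each lost its call in at least 10 of the 16 fits without 1 array.

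**Figure D4:**
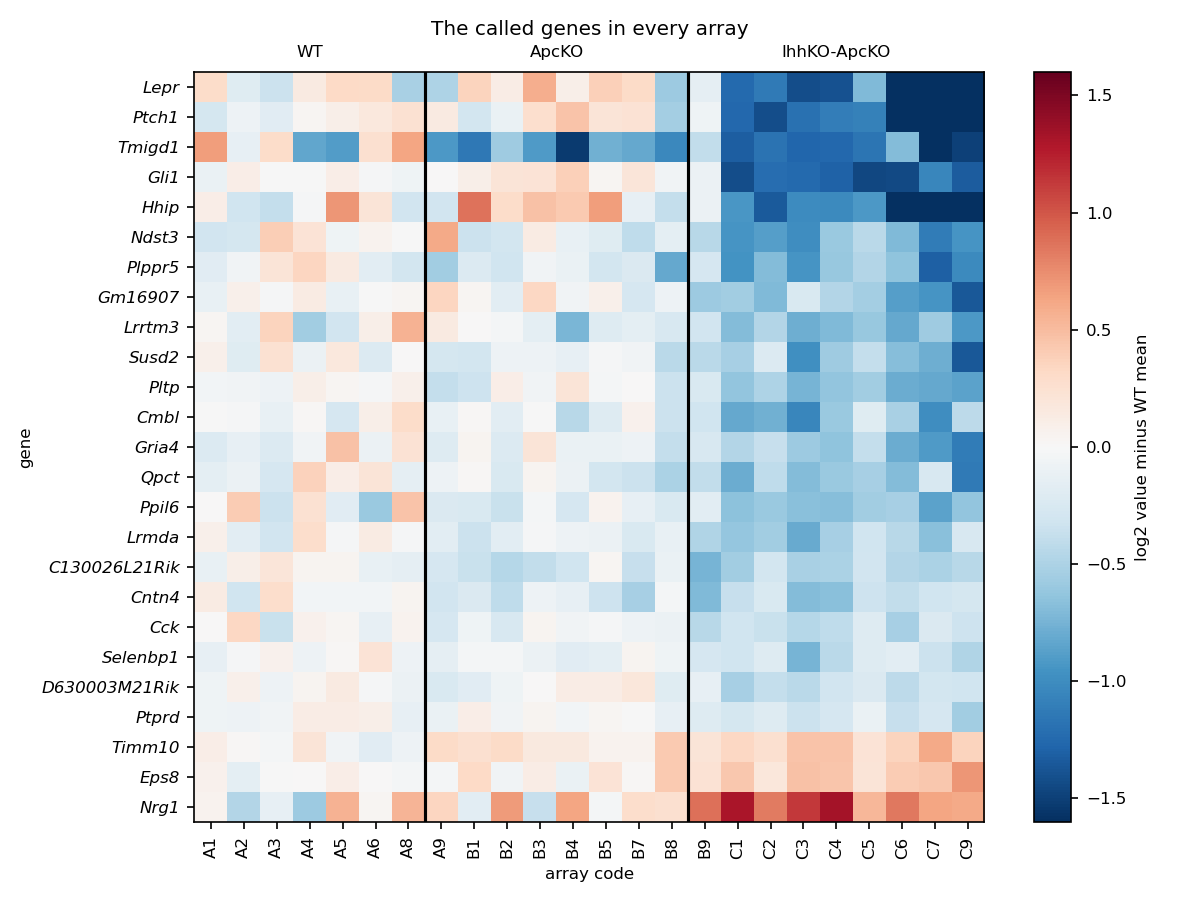
Log2 value minus the WT mean (colour) of the 25 called genes (rows) on all 24 arrays (columns, by array code). The IhhKO-ApcKO arrays are blue in the 22 lower genes and red in the 3 higher ones; B9 is pale in Lepr, Ptch1, Gli1 and Hhip, and Tmigd1 is also blue on the ApcKO arrays.

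The higher genes were 3. Nrg1, a ligand of the ErbB receptors made by fibroblasts near the epithelium, had WT values from 6.79 to 7.93 (median 7.40) and IhhKO-ApcKO values from 7.91 to 8.70 (median 8.23). On 8 of 9 arrays Nrg1 lay above every WT array, and the difference was 0.90 ± 0.17 (SE; adjusted p = 0.0338, limma). Leaving out B9 gave 0.90 as well, and ApcKO minus WT was 0.21. The call was lost in 9 of 16 fits without 1 array (without A1, A2, A3, A4, A6, C1, C3, C4 or C6, adjusted p up to 0.0858, limma), with differences from 0.80 to 0.99, and also with median centring and with the Y-linked mean as a covariate.

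Eps8, a substrate of the EGF receptor that acts on actin, had WT values from 6.54 to 6.80 (median 6.70) and IhhKO-ApcKO values from 6.88 to 7.40 (median 7.13), with no overlap, and rose by 0.39 ± 0.08 (SE; adjusted p = 0.0422, limma). Timm10, a chaperone of mitochondrial protein import, had WT values from 6.74 to 7.13 (median 6.89) and IhhKO-ApcKO values from 7.14 to 7.52 (median 7.28), and rose by 0.36 ± 0.07 (SE; adjusted p = 0.0217, limma). These are small changes, 1.31-fold and 1.28-fold, between groups that did not overlap. ApcKO minus WT was 0.11 for Eps8 and 0.21 for Timm10. Timm10 lost its call without A3, A5, A6, A8 or C4, and Eps8 kept it only without B9, C2 or C5.

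Nrg1 and Eps8 made 2 of 13 measured genes of the epidermal growth factor list, against 0.00973% of all genes. The list was chosen with earlier results of these data known, so this share is a description and no test of the pathway. No member fell, and the median difference was 0.06. Ereg, epiregulin, and Btc, betacellulin, both ligands of this receptor family and named after their values were seen, differed by 0.55 (adjusted p = 0.240, limma) and 0.38 (adjusted p = 0.308, limma). Without B9, Btc passed (0.46, adjusted p = 0.0462, limma) and Ereg did not (0.61, adjusted p = 0.131, limma). Nrg1 was also the 1 call among 14 markers of the fibroblasts next to the epithelium, against 0.0811% of all genes. That list, too, was chosen with earlier results known, and its median was -0.04. On it Cxcl14, a chemokine, differed by 0.36 (adjusted p = 0.357, limma).

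The next 5 genes in the higher direction did not pass with all arrays. Mmp10, the secreted protease stromelysin 2, had WT values from 4.49 to 6.07 (median 4.96) and IhhKO-ApcKO values from 5.26 to 6.61 (median 5.81), a difference of 0.92 ± 0.19 (SE; adjusted p = 0.0619, limma). On 4 of 9 arrays Mmp10 lay above every WT array, and its groups overlapped. Mgp, matrix Gla protein, an inhibitor of calcification, differed by 0.36 (adjusted p = 0.0681, limma); B9 (11.61) was its lowest IhhKO-ApcKO array, and the other 8 lay above every WT array. Gm7367 (0.43), Nsun2, an RNA methyltransferase (0.35), and Lipg, endothelial lipase (0.51), had adjusted p of 0.0613, 0.0719 and 0.0727 (limma).

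Leaving out B9 raised the number of called genes to 67, with 47 lower (0.152%) and 20 higher (0.0649%). All 25 genes were among them, and 42 were added, 25 lower and 17 higher. In 22 of the 25 genes the difference was larger in size without B9. It was then -0.69 for Pltp, -0.71 for Gm16907, -0.83 for Ndst3 and Plppr5, and -1.29 for Tmigd1. Eps8 stood at 0.41 and Timm10 at 0.38. C130026L21Rik was among those with a smaller difference, at -0.45. The 8 other arrays lay below every WT array for 43 genes (0.139%) and above for 23 (0.0746%). Fancc, Mgp, Mmp10, Rbp4 and Btc were among the 42, as were Gm7367, Nsun2, Lipg, Selenbp2 and Fgf2, a fibroblast growth factor (0.31, adjusted p = 0.0388, limma). Fam162b (-0.98), Dner, a Notch ligand (-0.90), and Wfdc1, a secreted protein with a protease inhibitor domain (-0.63), are named after their values were seen. So is Adamdec1, a protease-like protein of the gut, at -0.76, in which B9 (12.03) lay within the WT range of 11.39 to 12.16 and the other 8 arrays ran from 10.45 to 11.42. The array left out was chosen because earlier results of these data had shown it to stand apart, so the larger count is a description and no independent test.

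Genes of the matrix and of contraction did not pass, although most of their differences were negative. Over all genes 44.9% of the differences were positive. At an unadjusted p under 0.05, 4.58% of all genes were lower and 3.05% higher. Of 19 collagens 0 passed (16 lower, 3 higher, median -0.14; 5 lower at an unadjusted p under 0.05), Col14a1 at -0.29 (adjusted p = 0.357, limma), Col4a5 at -0.26 (adjusted p = 0.224, limma), Col6a2 at -0.23 and Col1a1 at -0.19. Of 14 contractile genes 0 passed (11 lower, median -0.19; 4 lower at an unadjusted p under 0.05), with Myl9, a myosin light chain, at -0.35, Synpo2 at -0.32, Des, desmin, at -0.24, and Acta2, smooth muscle actin, at -0.27 ± 0.15 (SE; adjusted p = 0.710, limma). Of 32 structural matrix genes 0 passed (22 lower, median -0.08; 8 lower and 2 higher at an unadjusted p under 0.05). Among them Cilp differed by -0.59 (adjusted p = 0.161, limma) and Lox, which cross-links collagen, by 0.38 (adjusted p = 0.104, limma). Markers of fibroblasts as a whole stood the same way, 11 of 13 lower with a median of -0.13 and 0 passed (4 lower at an unadjusted p under 0.05), Thy1 at -0.24 (adjusted p = 0.236, limma). In sorted bulk RNA, fewer cells of a type and less RNA per cell cannot be told apart.

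Proteases of the matrix and their inhibitors were mixed. Of 14 matrix metalloproteinases 9 were higher and 5 lower with 0 passed by limma (2 in each direction at an unadjusted p under 0.05), and Mmp3, stromelysin 1, had WT values from 6.47 to 9.17 and IhhKO-ApcKO values from 7.03 to 9.22, a difference of 0.27 ± 0.36 (SE; adjusted p = 0.900, limma). Mmp16, a membrane-bound member, differed by -0.23 (adjusted p = 0.182, limma) and Adamts12 by -0.22 (adjusted p = 0.323, limma).

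**Figure D5:**
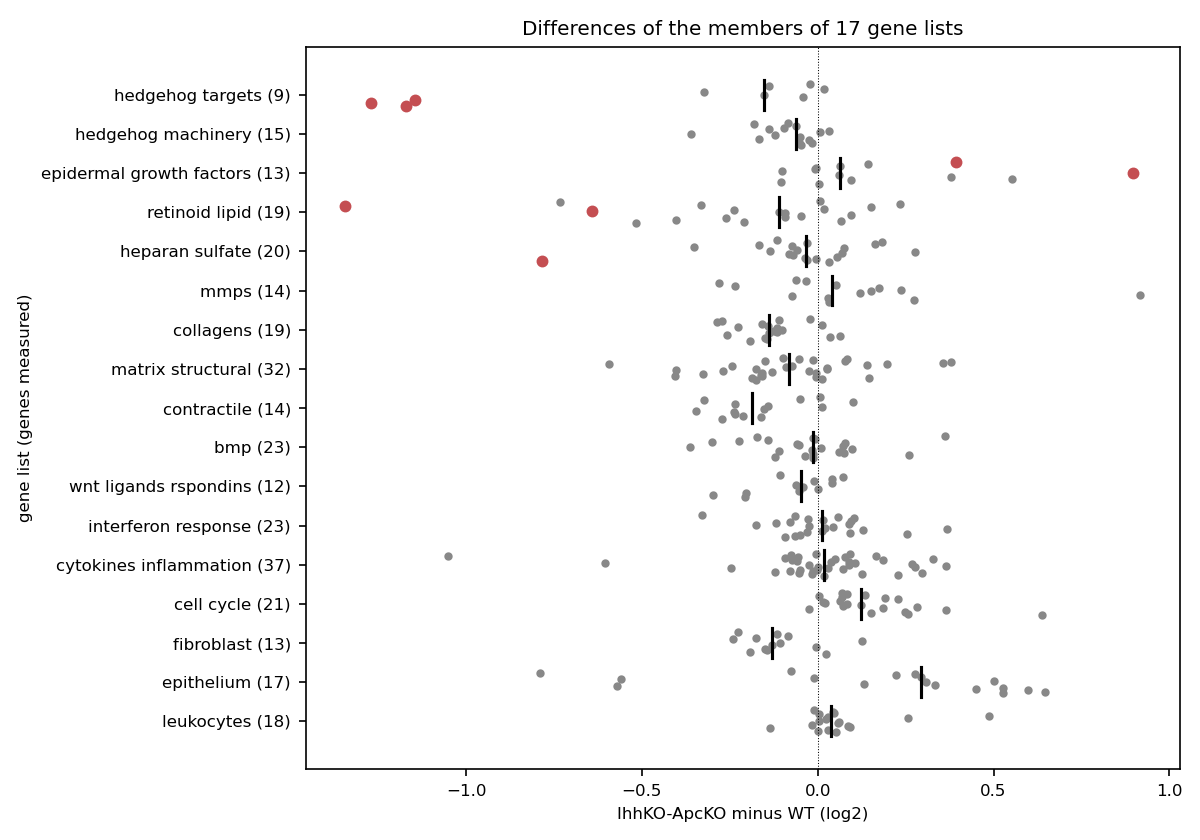
Differences between IhhKO-ApcKO and WT (horizontal axis, log2) of the measured members of 17 gene lists (rows), with members that passed in red and the list's median as a black line. The medians lie between -0.19 (contractile) and 0.29 (epithelium); members that passed are in 4 of the 17 lists.

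Ligands and targets of other pathways were near 0. Of 23 BMP pathway genes 0 passed (median -0.01; 2 higher and 4 lower at an unadjusted p under 0.05), Bambi, a decoy receptor, at 0.36 (adjusted p = 0.233, limma), Id3, a BMP target, at -0.23 (adjusted p = 0.348, limma) and Atoh8 at -0.17. Of 12 Wnt ligands and R-spondins 0 passed (median -0.05; 2 lower at an unadjusted p under 0.05), with Wnt2 at -0.21 and Wnt4 at -0.20, and of 11 Wnt inhibitors 0 passed (median -0.06, mean 0.03; 2 higher at an unadjusted p under 0.05), with Sfrp1 at 0.39 (adjusted p = 0.219, limma). Of 15 TGF-beta genes 0 passed (median 0.02; 1 in each direction at an unadjusted p under 0.05), Tgfb3 at -0.25. In 27 mesenchymal transcription factors the median was -0.08, Nr2f1 at -0.18 and Tbx3 at -0.20, and 0 passed by limma (4 lower at an unadjusted p under 0.05).

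Inflammatory genes showed no common direction. Of 37 cytokines and inflammatory genes 20 were higher and 17 lower, 0 passed by limma (2 in each direction at an unadjusted p under 0.05) and the median was 0.02. Il13ra2, a decoy receptor for interleukin 13, had WT values from 5.05 to 7.82 and IhhKO-ApcKO values from 4.75 to 6.01, a difference of -1.05 ± 0.33 (SE; adjusted p = 0.315, limma), with ApcKO minus WT at -1.45. Ccl8, a chemokine, differed by -0.60 ± 0.23 (SE; adjusted p = 0.510, limma), with ApcKO minus WT at -0.85. Of 23 interferon-response genes 12 were higher and 11 lower, with Isg15 at 0.25 and Cxcl10 at -0.33 and a median of 0.01; 0 passed by limma (1 higher at an unadjusted p under 0.05). H2-Aa, an MHC class II gene of antigen-presenting cells, differed by 0.44 (adjusted p = 0.483, limma), beside leukocyte markers of which 15 of 18 were higher with a median of 0.04, and Lyz2, a myeloid marker, at 0.49 (B9 at 6.83, WT at 4.40 to 5.45). The part of leukocyte RNA in these values was not tested.

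Cell cycle genes were higher in 20 of 21 cases with a median of 0.12 against -0.01 over all genes, and 0 passed by limma (3 higher at an unadjusted p under 0.05); Plk1 differed by 0.28 (adjusted p = 0.328, limma), Ccna2 by 0.37 and Mcm6 by 0.19. The list's mean ran from 5.70 to 5.78 on WT arrays and from 5.71 to 6.26 on IhhKO-ApcKO arrays, so the spread within IhhKO-ApcKO was the larger one. The epithelial marker mean moved with it among these 9 arrays: C7, C9 and B9 had the highest cell cycle means (6.26, 6.10 and 6.10) and also the highest epithelial means (7.74, 8.27 and 7.68), and C3 had the lowest of both (5.71 and 5.54). On WT arrays the epithelial mean reached 8.02 (A6) with a cell cycle mean of 5.78. The ApcKO arrays stood higher than WT as well. The list's group mean was 5.74 on WT, 5.87 on ApcKO and 5.90 on IhhKO-ApcKO arrays, and ApcKO minus WT was 0.30 for Plk1. The ApcKO arrays A9, B1, B7 and B8 had the highest cell cycle means of their group (5.96 to 6.03). They also had its highest epithelial means (7.84 to 8.19). The part of epithelial RNA in the cell cycle values was not tested. Genes of amino acid supply were led by Asns, asparagine synthetase (0.44, adjusted p = 0.124, limma), with 8 of 9 arrays above every WT array, and Psat1 (0.15, adjusted p = 0.453, limma), and 0 of 16 passed by limma (4 higher at an unadjusted p under 0.05).

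Markers of other cell types did not pass. Tek, an endothelial receptor, differed by -0.49 ± 0.11 (SE; adjusted p = 0.115, limma) while Pecam1, the gene of CD31, differed by -0.06, which turned above 0 without A5 or C1, and 10 blood endothelial markers had a median of -0.05 with 0 passed (1 lower at an unadjusted p under 0.05). Prox1, of lymphatic vessels, differed by -0.25 (adjusted p = 0.321, limma). Ncam1, on the lists of adhesion and of glia and neurons, had WT values from 8.89 to 9.75 and IhhKO-ApcKO values from 8.07 to 9.33, a difference of -0.61 ± 0.16 (SE; adjusted p = 0.178, limma). The pericyte genes Abcc9 (0.32, adjusted p = 0.233, limma) and Kcnj8 (0.24, adjusted p = 0.540, limma) were higher without passing. Cspg4 (-0.17, adjusted p = 0.641, limma) was lower without passing. Of 8 pericyte markers 3 were higher and 5 lower, with a median of -0.04 (2 higher and 1 lower at an unadjusted p under 0.05). Xist differed by 1.36 ± 1.52 (SE; adjusted p = 0.885, limma), and by -0.76 with the Y-linked mean as a covariate.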

How the data were processed

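RNA from sorted mouse colon fibroblasts was measured on Affymetrix Mouse Transcriptome Array 1.0 arrays, and the authors deposited log2 values made with RMA, per the submitters' processing notes. Its version, like the build of the genome, is not given in the sources used here. The table held 72688 probe sets; 65956 transcript clusters remained after 6732 controls were left out. In the platform annotation 31388 of them carried 1 gene symbol (784 through older names of 1 gene), 1362 had several and 33206 had none. Symbols were updated by Entrez identifier for 853. For the 423 genes with several probe sets the brightest, by its mean on the 24 arrays, was used, which left 30827 genes, 19242 protein-coding. The median was 4.596 for negative controls (95th percentile 8.087) and 2.8 for antigenomic controls (95th percentile 5.574); no filter on dim genes was applied.

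Groups were compared with limma 3.58.1 in R 4.3.3 (lmFit, eBayes) on all 24 arrays in 1 model with 3 groups, with Benjamini-Hochberg adjustment over 30827 genes at 0.05. The fit was tested on simulated data. Named genes were the 15 with the smallest p in each direction (at least 8 with those not passed), a fixed set of pathway and marker genes, up to 3 per list by p, the genes next to the threshold and the 5 called genes with the largest differences; exceptions are marked. The comparison, gene lists and alternatives were chosen with earlier results of these data known. Alternatives were leaving out each array, limma options, centring, filters on dim genes, probe set rules, covariates for Y-linked, epithelial and leukocyte RNA, the code letter as a block, and a minimum fold of 1.2.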

Additional observations from a re-analysis of the deposited data

Results flagged for a closer look

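Of 278 sets of array values tested for a lone array far from its group, 18 were past Dixon's 95% critical value, where chance alone gives about 1 in 20, or 14. Array B9 of IhhKO-ApcKO stood apart in 9: in Gli1 (7.99), Ptch1 (9.53), Hhip (8.96), Fam162b (7.35), Mgp (11.61) and Ppil6 (5.66), and in the means of the Hedgehog target list (8.68), of the cytokine list (7.62) and of the epidermal growth factor list (6.60). Array C9 stood apart in Gli2 (7.52) and in the means of the lists for adhesion and guidance (7.09), heparan sulfate (7.54) and blood endothelium (6.24); it also had the highest antigenomic background (3.15). Other lone arrays were WT A2 in Bmp4 (9.79) and Btc (6.80), WT A4 in Dner (6.89), C4 in Mcm6 (6.23) and C3 in Selenbp2 (8.49).

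Among 20 that passed in a fit of all 65956 transcript clusters, 6 have no gene name in the annotation used here and lie outside the gene-level comparison. TC0100002577.mm.1 had the largest difference of them, -1.935 ± 0.196 (SE; adjusted p = 3.14e-05, limma). Its WT values ran from 6.76 to 7.64, its ApcKO values from 6.81 upwards and 8 of its IhhKO-ApcKO values from 4.94 to 5.34, while B9 stood at 6.83. B9 was thus within the WT range here, as in Gli1, Ptch1 and Hhip. The others differed by -0.652 (TC0400001276.mm.1), -0.711 (TC1100002615.mm.1), -1.360 (TC0400001040.mm.1), -0.656 (TC1400000211.mm.1) and -1.525 (TC1400002550.mm.1), and in the last one the ApcKO values (4.48 to 5.99) lay between those of WT (5.08 to 6.53) and IhhKO-ApcKO (2.92 to 5.08) with overlap on both sides.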

How the results depend on the processing

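Main counts were 25 called genes, 3 higher and 22 lower. Leaving out 1 array gave 12 to 67 called, 1 to 20 higher and 10 to 47 lower, with the top of each range without B9. On the 16 arrays of both groups 7 were called, 0 higher and 7 lower; array weights gave 45 (11 higher, 34 lower), median centring 16 (4 higher, 12 lower), and the Y-linked covariate 14 (1 higher, 13 lower). Genes above the antigenomic 95th percentile gave 39 (7 higher), protein-coding genes 39 (7 higher), genes above the median gene 37 (7 higher), the leukocyte covariate 22 (6 higher), and all transcript clusters 20 (1 higher). A minimum fold of 1.2 left 1, Gli1 (0 higher, 1 lower). The cause was not tested, except that fewer arrays or genes entered some fits. The trend and robust options, the mean of the probe sets, the epithelial covariate and the filter on negative controls gave 25, 27, 25, 20 and 19.

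With the code letter as a block 84 genes were called, 56 higher, and 0 of the 25 were among them; no letter holds both groups, so this estimate rests on A9 and B9, each the lone array of its genotype under its letter. There Ptch1 (0.044), Ndst3 (0.36) and Lrrtm3 (0.049) changed sign, as did, among genes not called, Fancc (0.12), Nsun2 (-0.15), Fam162b (0.17), Lipg (-0.13), Asns (-0.10), Rbp4 (0.35), Adamdec1 (0.15), Sfrp1 (-0.52), Col4a5 (0.002), Bambi (-0.43), Ereg (-0.32), Cd36 (0.081), Nr2f1 (0.044), Cdon (0.28), Myl9 (0.03), Des (0.35), Acta2 (0.47), Cxcl10 (0.05), Krt20 (2.020), Foxf2 (0.19), Mmp3 (-2.081) and Pdpn (-0.09). No called gene changed sign under any other alternative run. Of genes not called, Xist did with the Y-linked covariate (-0.76), Smo with median centring (0.002) and the leukocyte covariate (0.011), Foxf1 without A5 (0.008, with a range of -0.079 to 0.008 over the arrays left out), Pecam1 without A5 (0.026) or C1 (0.011), and Bmp4 without A2 (-0.083), C1 (-0.002), C4 (-0.003) or C5 (-0.029), with a highest value of 0.071 without A5. Of 749 comparisons of a called gene with an alternative, 501 kept direction and call, 245 kept the direction only and 3 reversed.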
